A study of Mus musculus with 2 samples.

Results

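The enzymes that modify, conjugate and clear xenobiotics and reactive aldehydes were examined in mouse fetal lung epithelium cultured with or without CHIR99021, a small molecule that blocks glycogen synthase kinase 3 and thereby activates canonical Wnt signalling. Members were all genes read by a probe set naming only that gene whose symbol belongs to the cytochrome P450 (Cyp, without the retinoic acid hydroxylases Cyp26 and the sterol demethylase Cyp51), glutathione S-transferase (Gst), aldehyde dehydrogenase (Aldh), aldo-keto reductase (Akr), carbonyl reductase (Cbr), quinone reductase (Nqo), carboxylesterase (Ces), UDP-glucuronosyltransferase (Ugt), sulfotransferase (Sult), flavin monooxygenase (Fmo) or epoxide hydrolase (Ephx) families. The rule found 251 probe sets of 176 genes, of 18193 genes in all. No expression value entered the rule.

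Epithelium of ICR mice at embryonic day 11 was first grown in Matrigel, a basement membrane gel, with FGF10 and CHIR99021 for 4 days, then fragmented, embedded again and grown for 2 days with FGF10. During these last days CHIR99021 was either kept (CHIR+) or left out (CHIR-), so that both cultures had been exposed to it before. There was 1 array per condition, and no strain, allele or age differed between them. How many embryos went into each culture is not given in the sources used here. Every value is therefore a single measurement, with no spread between cultures, no test and no p-value. In such bulk samples, fewer cells of a type and less RNA per cell cannot be told apart.

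These enzymes act in sequence. Phase 1 enzymes, such as the P450s, flavin monooxygenases, reductases, esterases and aldehyde dehydrogenases, add or expose a reactive group, and phase 2 enzymes, such as the glutathione S-transferases, glucuronosyltransferases and sulfotransferases, attach a polar molecule to it. In the lung this chemistry is concentrated in the club cells of the airway, which carry Cyp2f2, and many of the genes are induced through the aryl hydrocarbon receptor (AhR) or through Nrf2, the transcription factor of the oxidative stress response.

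RefSeq promoter windows of 6 genes (GRCm38.p6, from 250 bases before to 50 bases after the annotated start, 300 bases each, 5' to 3' on the gene's strand) are shown because they belong to the genes on which the values below turn. The first pair are P450s that were among the most reduced with CHIR99021, the second pair are neighbouring aldehyde dehydrogenases that were both reduced, and the third pair come from one glutathione S-transferase cluster, in which Gstm1 was lower and Gstm5 was not. Where a gene had several starts the most downstream was taken. Capitals mark the letters of motifs that were searched, except in Aldh1a1 and Aldh1a7, where they mark the longest run that both windows share.
Cyp2f2 (chr7:27119705-27120004, strand +): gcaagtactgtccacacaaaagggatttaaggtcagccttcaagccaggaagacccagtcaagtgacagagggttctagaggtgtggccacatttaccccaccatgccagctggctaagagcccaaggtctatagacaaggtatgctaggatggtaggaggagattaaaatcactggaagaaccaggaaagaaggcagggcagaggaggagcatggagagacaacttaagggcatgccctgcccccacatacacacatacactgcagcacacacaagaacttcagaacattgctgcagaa
Cyp1a1 (chr9:57697363-57697662, strand +): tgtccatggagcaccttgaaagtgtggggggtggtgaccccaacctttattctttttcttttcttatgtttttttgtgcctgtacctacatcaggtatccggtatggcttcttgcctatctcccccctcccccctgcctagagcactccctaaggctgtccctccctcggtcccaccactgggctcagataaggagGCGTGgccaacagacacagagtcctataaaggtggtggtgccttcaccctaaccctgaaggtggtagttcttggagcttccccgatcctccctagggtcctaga
Aldh1a1 (chr19:20601718-20602017, strand +): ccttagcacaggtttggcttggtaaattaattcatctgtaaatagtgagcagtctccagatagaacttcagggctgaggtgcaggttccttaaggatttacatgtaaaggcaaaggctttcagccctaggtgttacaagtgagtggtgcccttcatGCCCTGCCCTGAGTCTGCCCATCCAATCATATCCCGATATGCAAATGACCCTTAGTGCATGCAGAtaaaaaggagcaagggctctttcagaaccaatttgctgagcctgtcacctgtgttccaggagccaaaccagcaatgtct
Aldh1a7 (chr19:20727507-20727806, strand -): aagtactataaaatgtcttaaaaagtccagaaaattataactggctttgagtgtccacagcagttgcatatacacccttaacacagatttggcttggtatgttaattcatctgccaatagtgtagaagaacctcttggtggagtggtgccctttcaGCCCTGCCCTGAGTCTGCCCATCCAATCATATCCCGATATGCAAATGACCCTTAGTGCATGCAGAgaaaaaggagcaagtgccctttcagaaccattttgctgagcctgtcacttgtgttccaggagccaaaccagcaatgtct
Gstm1 (chr3:108017769-108018068, strand -): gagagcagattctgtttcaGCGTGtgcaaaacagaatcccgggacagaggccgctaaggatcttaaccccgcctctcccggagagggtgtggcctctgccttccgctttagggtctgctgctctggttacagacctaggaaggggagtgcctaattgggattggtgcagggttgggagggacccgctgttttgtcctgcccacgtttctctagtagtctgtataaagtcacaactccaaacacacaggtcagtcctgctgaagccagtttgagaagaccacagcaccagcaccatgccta
Gstm5 (chr3:107895604-107895903, strand +): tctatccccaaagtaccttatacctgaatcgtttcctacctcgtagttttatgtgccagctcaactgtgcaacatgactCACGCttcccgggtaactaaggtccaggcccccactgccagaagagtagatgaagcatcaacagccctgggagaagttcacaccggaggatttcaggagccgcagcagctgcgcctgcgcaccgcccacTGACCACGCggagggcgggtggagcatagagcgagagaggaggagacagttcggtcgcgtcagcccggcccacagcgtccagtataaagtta

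A signal counted as present when it exceeded the floor of its array, the 95th percentile of 80 probe sets for olfactory and vomeronasal receptors, which was 12.7 for CHIR+ and 19.2 for CHIR-. Of the 176 genes, 85 exceeded it on 1 or both arrays and are called measured, and 91 did not exceed it on either. Of the 85, 66 did so on both arrays, 7 on the CHIR+ array only and 12 on the CHIR- array only. Log2 ratios are CHIR+ over CHIR- with lower signals raised to the floor, so where a gene passed the floor on a single array its ratio is a bound. Because the floors differ, the sign of a bound near 0 carries no direction. All genes are read by their brightest probe set unless stated otherwise. Most genes on the CHIR+ array were dimmer, with a median log2 ratio of -0.42 over 12917 measured genes, and the CHIR+ array also had the larger 3' bias: the 3' to 5' signal ratio was 3.18 for CHIR+ and 1.29 for CHIR- with the beta-actin controls and 1.62 and 0.737 with those of Gapdh. The part of this bias in the results was not tested.

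The enzymes were lower with CHIR99021 in large part. Of the 85 measured genes 43 were at least 2-fold lower and 1 was at least 2-fold higher, where 18.4% and 1.9% of all measured genes were. The share of lower enzyme genes was 50.6%. Of the 66 genes that passed the floor on both arrays, 33 were lower (50%, against 17.3% of all such genes) and 1 was higher (1.75% of all such genes). A lower signal of any size was found for 61 of these 66, or 92.4%, against 76.4% of all such genes. Of the same 66 genes 9 were at least 8-fold lower, or 13.6%, against 0.784% of all such genes. The median log2 ratio of the measured enzymes was -1.02.

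Summed over the 176 genes, the signal was 26027 for CHIR+ and 63076 for CHIR-. These sums are on the authors' scale, on which all measured genes had a median log2 ratio of -0.42. Other scalings kept most of the calls. After median centring, which shifts all log2 ratios by 0.62, 31 enzyme genes were lower and 1 higher (36.5% lower, against 5.91% of all measured genes lower and 8.59% higher). Loess left 32 lower (7.29% of all measured genes), quantile normalization 32 (6.43%) and scaling on 9 hybridization controls 38 (13.7%). A shared set of 31 genes was at least 2-fold lower on all 5 scales.

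**Figure D1:**
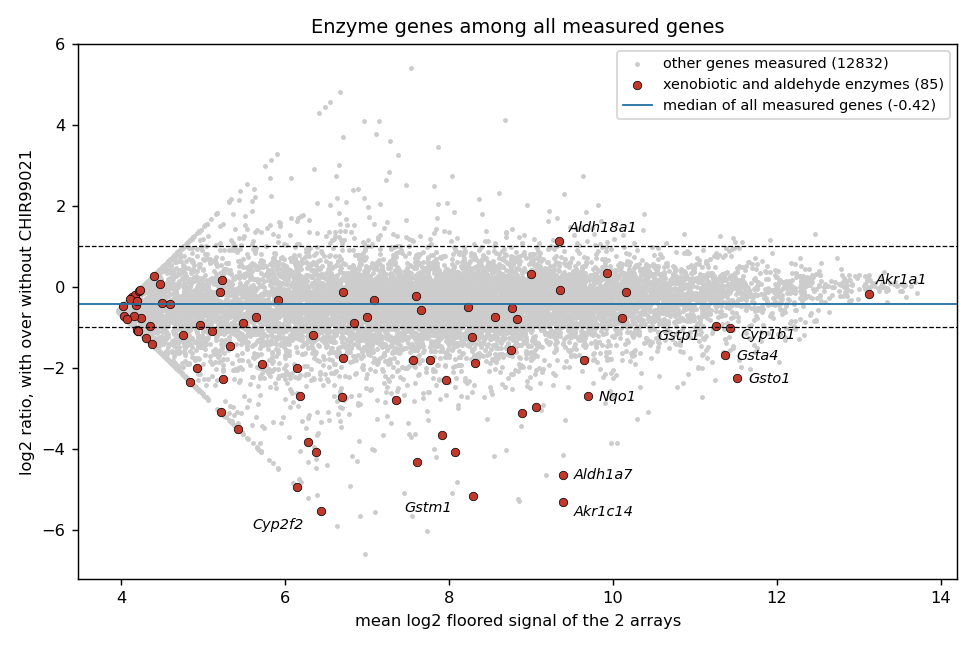
Log2 ratio of CHIR+ over CHIR- (vertical axis) against the mean log2 floored signal of the 2 arrays (horizontal axis), 1 point per measured gene, with the 85 enzyme genes in red, 2-fold limits dashed and the median of all measured genes as a blue line. Enzyme genes lie below the lower limit over most of the signal range, from Cyp2f2 to the bright Gsto1, and among them Aldh18a1 alone is above the upper limit.

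Among the P450s of families 1 to 4, the families of xenobiotic and fatty acid oxidation, 8 of 16 measured genes were lower, 0 were higher and 40 of the 56 members were not measured. After median centring 5 were lower and 0 higher. The shares of all measured genes, for every family, were 18.4% lower and 1.9% higher, and 5.91% and 8.59% after median centring. Cyp2f2, the P450 that defines club cells and bioactivates naphthalene, had a signal of 6.11 in CHIR+, below the floor, and 591 in CHIR-. It was at least 46.5-fold lower. Cyp2s1, a P450 of epithelia that is inducible through AhR, had 0.763 in CHIR+ and 395 in CHIR-, at least 31.1-fold lower. Both genes thus had a clear signal in CHIR- and none above background in CHIR+.

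Cyp1a1, the classical AhR target that oxidises polycyclic aromatic hydrocarbons, was 16.8-fold lower, with a signal of 20.3 in CHIR+, just above the floor, and 340 in CHIR-. Cyp1b1, a related AhR target, was far brighter and changed less, with 1927 in CHIR+ and 3904 in CHIR-. Its log2 ratio was -1.02 on the authors' scale but -0.40 after median centring and -0.85 after loess, and its further probe set had 363 in CHIR+ and 1204 in CHIR-. Cyp2j6, an arachidonic acid epoxygenase, was 3.99-fold lower (35.3 in CHIR+ and 141 in CHIR-). Cyp1a2 and Cyp4b1, P450s known from liver or adult lung, were below the floor on both arrays. Cyp2b10, a liver P450, was below it on both by its brightest probe set, and a further one had 0.490, below the floor, in CHIR+ and 20.2, just above it, in CHIR-.

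The 14 other P450s, which mostly oxidise sterols and steroids, held 7 measured genes, of which 2 were lower and 0 higher. After median centring 0 of the 7 were lower and 0 higher. Most were near the floor, so that these counts carry little. The brightest was Cyp20a1, a P450 of uncertain substrate, with 1093 in CHIR+ and 867 in CHIR-, within 2-fold. Its further probe sets had log2 ratios of -0.19 and -2.02, so the readings of this gene disagreed in sign.

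Aldehyde dehydrogenases ranged from 25.3-fold lower for Aldh1a7 to 2.21-fold higher for Aldh18a1. Aldh1a1, a cytosolic enzyme that makes retinoic acid from retinaldehyde, had 65.7 in CHIR+ and 1107 in CHIR-. Aldh1a7, its close rodent paralog, had 134 in CHIR+ and 3382 in CHIR-, 25.3-fold lower. The genes are neighbours in the RefSeq annotation, with no protein-coding gene between them, and their promoter windows shown above were identical at 70.4% of aligned positions, with a shared run of 65 bases. The probe sequences were not used here, and probe sets of genes this similar may read the RNA of both.

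The other retinaldehyde dehydrogenases were nearly silent. Aldh1a2, the main retinoic acid enzyme of lung mesenchyme, had 1.38 in CHIR+ and 26.9 in CHIR-, a signal too close to the floor to weigh, and Aldh1a3 had 16.8 in CHIR+ and 11.1, below the floor, in CHIR-. Aldh3a2, which oxidises long-chain fatty aldehydes in the endoplasmic reticulum, was 4.92-fold lower (113 in CHIR+ and 555 in CHIR-). Aldh6a1, a mitochondrial enzyme of valine breakdown, had 251 in CHIR+ and 743 in CHIR-, 2.97-fold lower, but a log2 ratio of -0.95 after median centring.

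In contrast Aldh2, the mitochondrial acetaldehyde dehydrogenase, was within 2-fold, with 847 in CHIR+ and 1437 in CHIR-. Aldh9a1, which works in carnitine synthesis, had 1088 in CHIR+ and 1194 in CHIR-, and its ratio turned positive (0.49) after median centring. The single enzyme gene past 2-fold upward was Aldh18a1, the mitochondrial synthase that starts proline synthesis from glutamate, with 968 in CHIR+ and 438 in CHIR-, 2.21-fold higher. All 5 of its probe sets had a higher signal in CHIR+, with log2 ratios between 0.51 and 1.15, but the other 4 were under the threshold. Of the 15 measured Aldh genes 5 were lower, 1 was higher and 9 were within 2-fold. After median centring 3 were lower and 1 was higher.

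**Figure D2:**
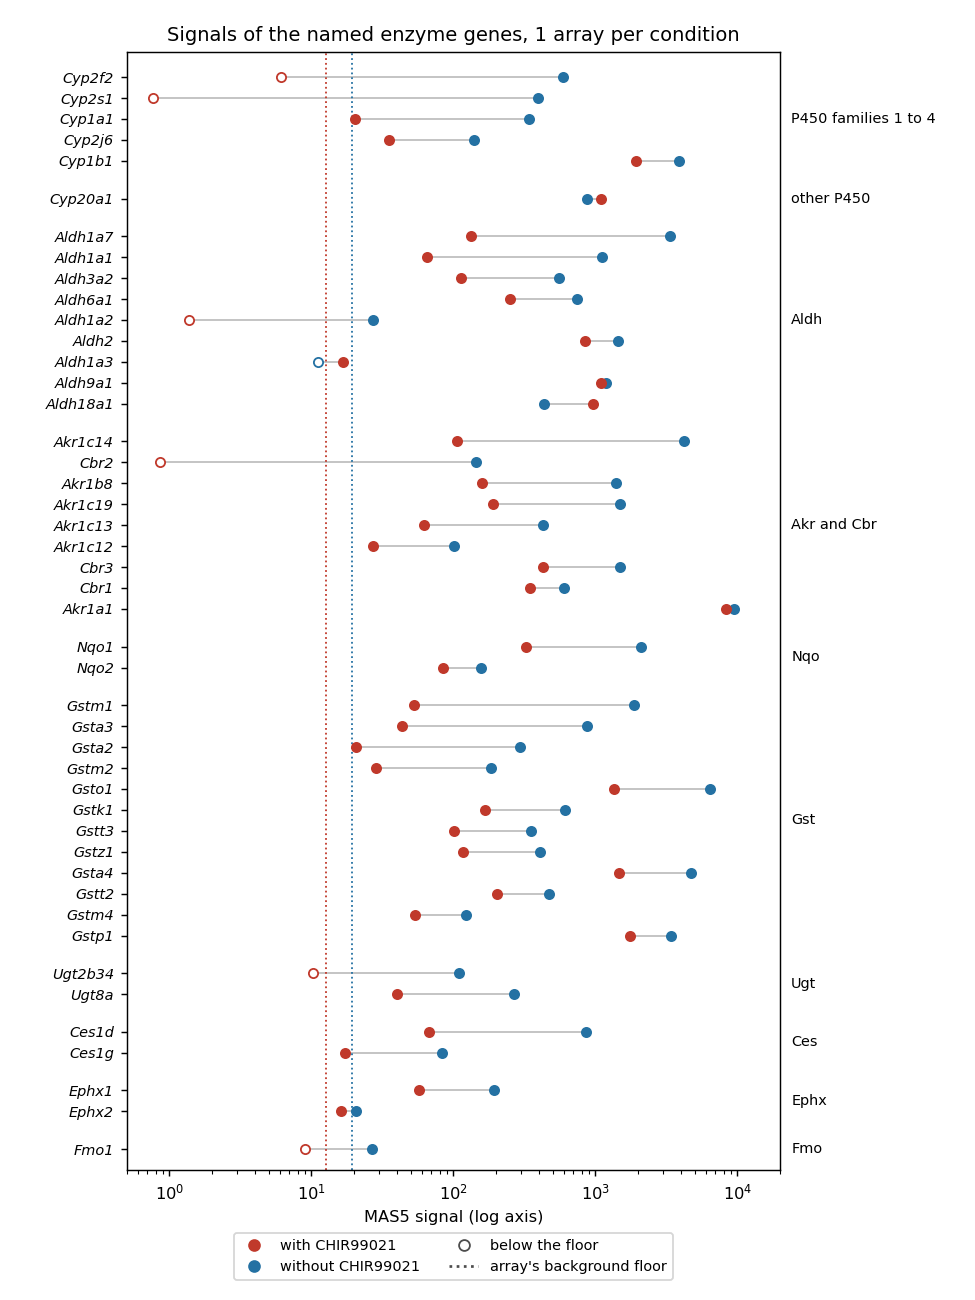
MAS5 signal (log axis) of the 45 measured enzyme genes picked by the naming rule of the methods, which leaves out Gstm5, 1 array per condition, with CHIR+ in red and CHIR- in blue; open circles are below the floor of their array, which the dotted lines mark. Red points lie left of blue ones for most genes, by the widest margins for Cyp2s1, Cyp2f2, Cbr2, Akr1c14 and Gstm1, while Aldh18a1, Cyp20a1 and the dim Aldh1a3 run the other way.

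Reductases of aldehydes and ketones ranged from 39.9-fold lower to nearly equal signals. Akr1c14, a 3-alpha-hydroxysteroid dehydrogenase, had 106 in CHIR+ and 4239 in CHIR-. At 39.9-fold lower it had the lowest ratio of the enzyme genes above the floor on both arrays. Akr1c19, Akr1c13 and Akr1c12, further dehydrogenases of the same cluster, were 7.78-fold, 6.94-fold and 3.73-fold lower. Akr1c19 had 191 in CHIR+ and 1482 in CHIR-. A probe set that names both Akr1c12 and Akr1c13 had 77.1 in CHIR+ and 497 in CHIR-, so paralogs of this cluster are in part read together.

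Akr1b8, a reductase of lipid-derived aldehydes, was 8.74-fold lower, with 160 in CHIR+ and 1400 in CHIR-. Cbr2, the carbonyl reductase of lung mitochondria, had 0.862 in CHIR+, below the floor, and 145 in CHIR-, at least 11.4-fold lower. Cbr3 was 3.51-fold lower (427 in CHIR+ and 1499 in CHIR-), whereas its neighbour on chromosome 16, Cbr1, was within 2-fold (345 in CHIR+ and 598 in CHIR-). Akr1a1, the general aldehyde reductase and the brightest of all the enzyme genes, had 8355 in CHIR+ and 9495 in CHIR-. All 4 of its probe sets had a lower signal in CHIR+, by log2 ratios between -0.62 and -0.18, and the brightest turned to 0.44 after median centring. In all 7 of 15 measured Akr and Cbr genes were lower, 0 were higher and 8 were within 2-fold, and the same 7 to 0 count held after median centring.

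Nqo1, the quinone reductase used as the standard readout of Nrf2, was 6.49-fold lower, with 325 in CHIR+ and 2107 in CHIR-. Nqo2, a related reductase with a different cosubstrate, had 83.9 in CHIR+ and 156 in CHIR- by its brightest probe set, within 2-fold, and 52.5 in CHIR+ and 184 in CHIR- by another.

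Glutathione S-transferases, which couple glutathione to electrophiles, had the highest share of lower genes among the families with 10 or more measured genes. Of 16 measured genes 12 were lower and 0 higher, all 16 were above the floor on both arrays, and the median log2 ratio was -1.81; after median centring 10 were lower and 0 higher. The mu-class enzyme Gstm1 had 52.5 in CHIR+ and 1879 in CHIR-, 35.8-fold lower. Its 4 probe sets all passed 2-fold, with log2 ratios between -5.16 and -2.61. Gsta3, an alpha-class enzyme known for detoxifying aflatoxin epoxide in mice, was 20.1-fold lower (43.6 in CHIR+ and 875 in CHIR-). Its further probe set fell less, with 39.4 in CHIR+ and 171 in CHIR-, a log2 ratio of -2.12. Gsta2, a related alpha-class gene, was 14.3-fold lower, and a probe set that reads it together with Gsta1 had 25.2 in CHIR+ and 181 in CHIR-.

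Other members of the family had smaller folds. Gsto1, an omega-class enzyme with thiol transferase activity, had 1348 in CHIR+ and 6378 in CHIR-, 4.73-fold lower, and its further probe set was 410 in CHIR+ and 4238 in CHIR-. Gsta4, which conjugates the lipid peroxidation product 4-hydroxynonenal, had 1477 in CHIR+ and 4728 in CHIR-, 3.20-fold lower. Gstp1, the pi-class enzyme, had 1749 in CHIR+ and 3396 in CHIR-, just within 2-fold. Gstk1 and Gstz1, of peroxisomes and tyrosine breakdown, were 3.68-fold and 3.48-fold lower, and in the theta class Gstt3 was 3.51-fold and Gstt2 2.34-fold lower. The last of these was at -0.61 on the log2 scale after median centring, as was Gstm4 at -0.58, so both were then within 2-fold.

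The mu-class genes lie side by side on chromosome 3, in the RefSeq order Gstm5, Gstm7, Gstm6, Gstm3, Gstm2, Gstm1 and Gstm4, with no other protein-coding gene among them. Along this order the log2 ratios were 0.32, -0.13, not measured, -2.01, -2.70, -5.16 and -1.20. The first measured pair was thus within 2-fold and the last 4 genes were lower. Gstm5, known from brain and testis, had 571 in CHIR+ and 456 in CHIR-. On chromosome 13, the genes from Akr1c14 to Akr1c21 likewise follow each other without another protein-coding gene, and Akr1c14, Akr1c13, Akr1c19 and Akr1c12 were lower, Akr1c21 was within 2-fold near the floor, and Akr1c18, Akr1c6 and Akr1c20 were not measured. Near-identical paralogs in both clusters can share probes, and the probe sequences were not used here. The reading of a dimmer gene may thus hold signal of a brighter neighbour, which makes both the order and its own direction uncertain.

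The remaining families had 5 or fewer measured genes each, so their counts say little beside the 18.4% of all measured genes that were lower. Ces1d, a carboxylesterase of lung and fat, was 12.7-fold lower, with 67.8 in CHIR+ and 859 in CHIR-, and its 3 probe sets had log2 ratios between -3.66 and -3.60. Ces1g was 4.85-fold lower (17.2 in CHIR+ and 83.3 in CHIR-). Of 5 measured Ces genes 3 were lower and 0 higher (2 and 0 after median centring). Ugt8a, which makes the glycolipid galactosylceramide, was 6.63-fold lower (40.1 in CHIR+ and 266 in CHIR-), and Ugt2b34, a glucuronosyltransferase, was at least 8.54-fold lower (10.2 in CHIR+ and 109 in CHIR-); both measured Ugt genes were thus lower. Ephx1, the microsomal epoxide hydrolase that acts after P450s, was 3.37-fold lower (56.9 in CHIR+ and 192 in CHIR-), while Ephx2, the soluble form, stayed near the floor with 16.2 in CHIR+ and 20.5 in CHIR-. Fmo1, a flavin monooxygenase, had 9.06, below the floor, in CHIR+ and 26.9 in CHIR-, and both measured Fmo genes were lower on the authors' scale, though neither was after median centring. Of 13 sulfotransferases 3 were measured, all dim, and 0 passed 2-fold. Ces1f, Fmo2 and Sult1d1 were below the floor on both arrays, as was Aldh3a1 among the aldehyde dehydrogenases.

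**Figure D3:**
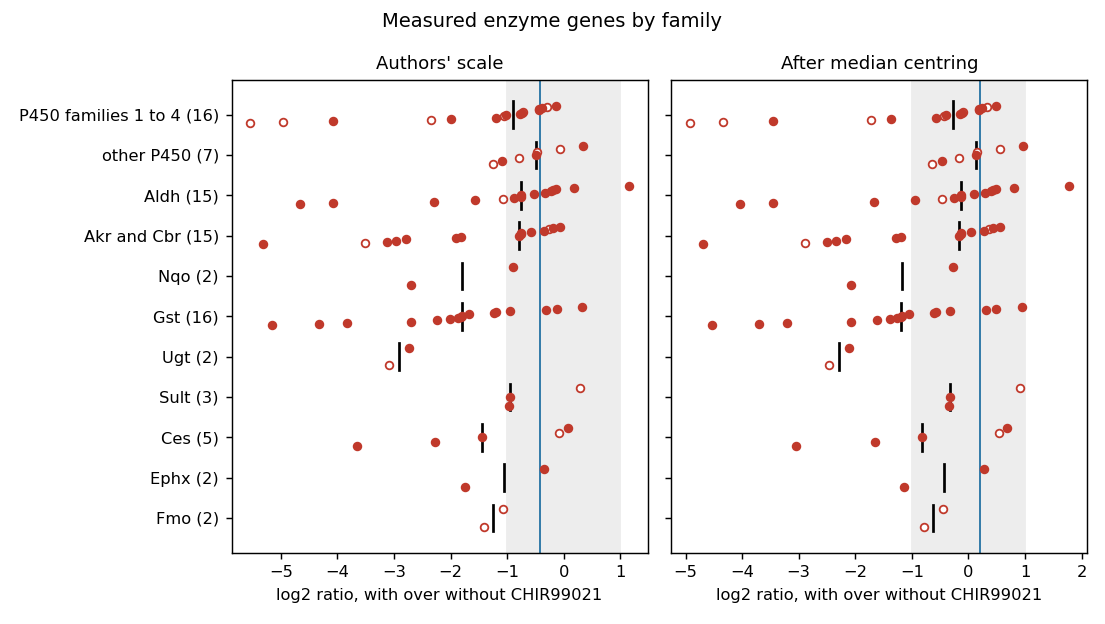
Log2 ratios of CHIR+ over CHIR- for the measured genes of each enzyme family (number in brackets), on the authors' scale and after median centring; filled points are above the floor on both arrays, open points are bounds, black bars are family medians, the grey band is within 2-fold and the blue line is the median of all measured genes. The Gst family lies mostly left of the grey band in both panels.

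Repeated readings of the same RNA mostly kept the direction on the authors' scale. Of 21 enzyme genes with 2 or more measured probe sets, 19 had ratios of 1 sign, and the exceptions were Cyp20a1 and Aldh16a1. The same count over all genes was not made, and 76.4% of all genes above the floor on both arrays had a lower signal in CHIR+. After median centring, probe sets of Akr1b10, Aldh2, Aldh9a1, Cyp4f16 and Gstm7 differed in sign too. Of the 9 among these 21 genes that were lower by the brightest probe set, 7 were lower by every one. Cyp2j6 and Fmo5 each had a further probe set within 2-fold. In 5 other genes, Nqo2, Aldh2, Aldh9a1, Cyp4f16 and Cyp20a1, a dimmer probe set passed 2-fold downward when the brightest did not. Over 5335 genes of the whole array, the SD of log2 ratios among probe sets reading 1 gene was 0.56; this is a spread among probes, and says nothing of cultures.

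**Figure D4:**
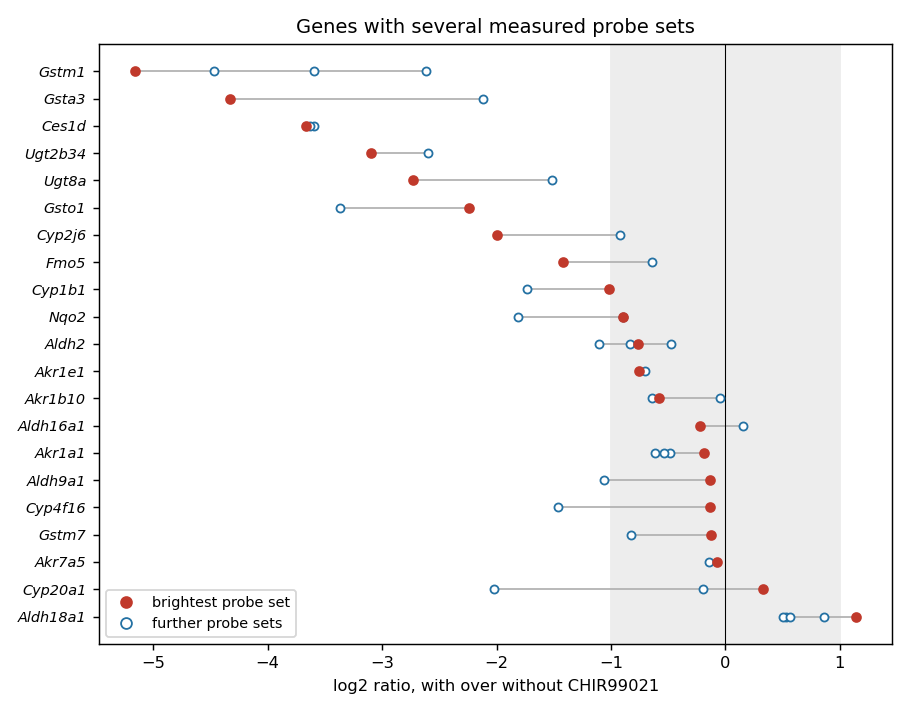
Log2 ratios of CHIR+ over CHIR- for every measured probe set of the 21 enzyme genes that have several, with the brightest probe set in red, further ones as open blue circles and the range within 2-fold in grey. Gstm1, Gsta3, Ces1d, Ugt2b34, Ugt8a, Gsto1 and Cyp1b1 lie left of the grey range with all their probe sets.

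The genes that regulate and supply these enzymes were then examined as whole lists, whose counts stand against 18.4% lower and 1.9% higher among all measured genes, and 5.91% and 8.59% after median centring. Ahr itself, the aryl hydrocarbon receptor, had 525 in CHIR+ and 1379 in CHIR-, with a log2 ratio of -1.39, while its dim second probe set had 24.9 in CHIR+ and 24.7 in CHIR-. Arnt, its DNA-binding partner, had 175 in CHIR+ and 388 in CHIR-, and Ahrr, a repressor that AhR induces, had 40.5 in CHIR+ and 124 in CHIR-. Tiparp, another AhR target, had 667 in CHIR+ and 730 in CHIR- by its brightest probe set. Its further probe sets had 325 in CHIR+ and 771 in CHIR-, and 57.9 in CHIR+ and 287 in CHIR-, both past 2-fold downward. By the brightest probe sets 3 of 4 genes were lower and 0 higher, but after median centring 0 were lower. Further, dimmer probe sets of Arnt had log2 ratios of -2.20, -2.18 and -1.79 on the authors' scale, against -1.15 for its brightest.

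Nfe2l2, which encodes Nrf2, had 1605 in CHIR+ and 4755 in CHIR-, a log2 ratio of -1.57 that was -0.94 after median centring. It was the only lower gene among 7 Nrf2 regulators, a share no higher than that of all measured genes, and Keap1, the adaptor that marks Nrf2 for degradation, had 428 in CHIR+ and 352 in CHIR-, and a dimmer second reading of it gave -0.46 on the log2 scale. In the list of glutathione and Nrf2 response genes 9 of 15 measured genes were lower and 0 higher (3 and 0 after median centring). Gclc, the catalytic subunit of the rate-limiting enzyme of glutathione synthesis, had 411 in CHIR+ and 2429 in CHIR-, with a log2 ratio of -2.56, and its other probe set had -0.99. Mgst2, a membrane-bound glutathione transferase, Srxn1, which restores peroxiredoxins, and Hmox1, haem oxygenase, had log2 ratios of -2.50, -1.73 and -1.60. Txn1, thioredoxin, had 8033 in CHIR+ and 7133 in CHIR-.

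Among other oxidoreductases 4 of 9 measured genes were lower and 0 higher, also after median centring. Aox1, aldehyde oxidase, had 41.2 in CHIR+ and 518 in CHIR-, Maob, monoamine oxidase B, had 207 in CHIR+ and 1565 in CHIR-, and Adh7, an alcohol dehydrogenase of stratified and airway epithelia, had 12.4, below the floor, in CHIR+ and 145 in CHIR-. Dhrs3, a retinaldehyde reductase, had 35.9 in CHIR+ and 143 in CHIR-. Adh5, the formaldehyde-clearing class of alcohol dehydrogenase present in all cells, had 1936 in CHIR+ and 2218 in CHIR-.

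In the list of conjugation and cofactor genes 2 of 6 were lower and 0 higher. Papss2, which makes the sulfate donor of sulfotransferases, had 14.9 in CHIR+ and 130 in CHIR-, while Ugdh, which makes the glucuronic acid donor, had 760 in CHIR+ and 779 in CHIR-. Of 4 measured electron donors of P450s 2 were lower, Cyb5b and Cyb5r3, and 0 higher. After median centring 1 gene was lower in each of these lists. Of 5 measured export pumps 1 was lower, Abcc3, which is near the share of all measured genes, and 1 was higher: Abcg2, a pump that also marks stem cells, had 103 in CHIR+ and 42.7 in CHIR-. Of the xenobiotic nuclear receptors, Nr1i2 and Nr1i3, which control P450s in liver, were below the floor on both arrays, and 0 of the 3 measured genes passed 2-fold.

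**Figure D5:**
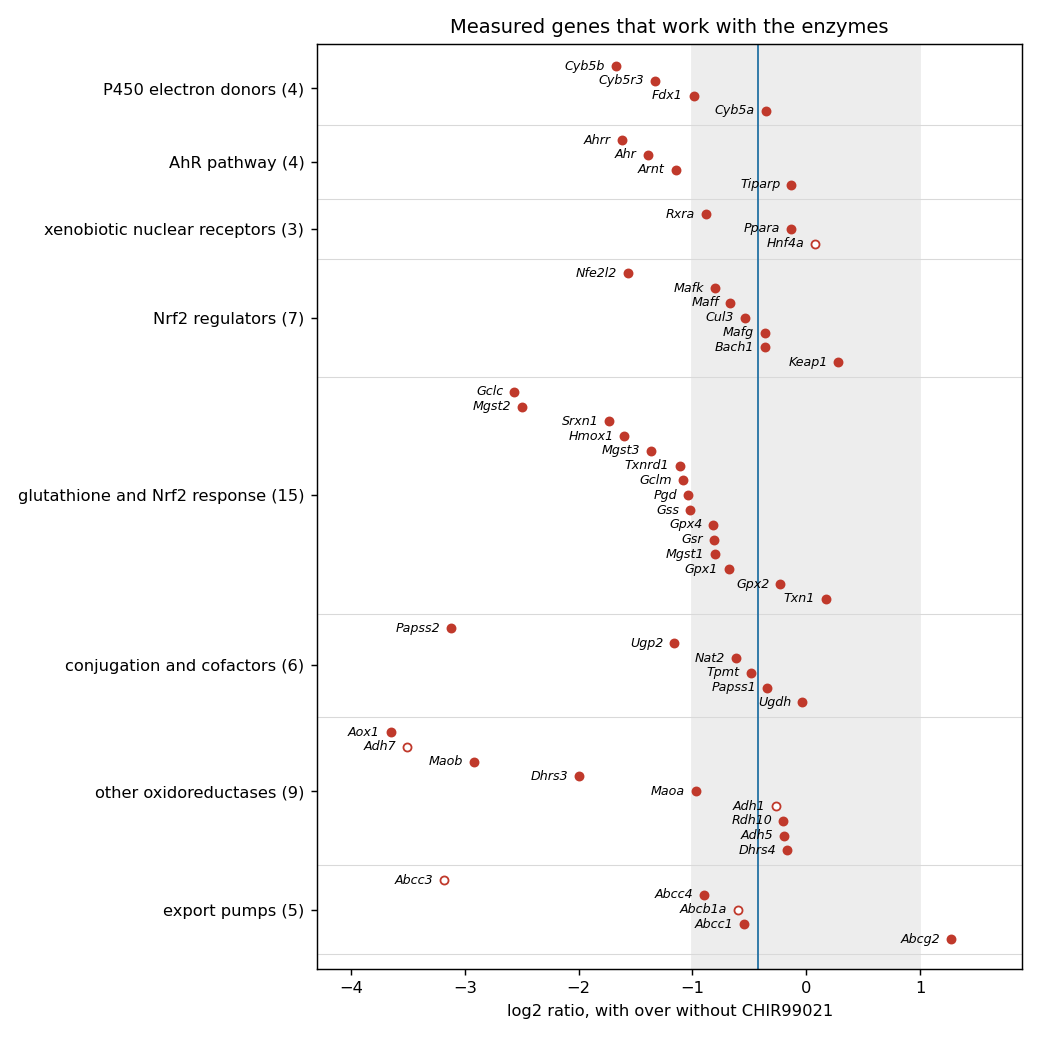
Log2 ratios of CHIR+ over CHIR- for the measured genes of 8 lists that regulate, supply or complement the enzymes (number measured in brackets); open points are bounds, the grey band is within 2-fold and the blue line is the median of all measured genes. Aox1, Adh7, Abcc3 and Papss2 lie farthest left, and Abcg2 is the single gene right of the band.

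Markers of cell types were read on the same arrays, and their counts stand against the same shares of all measured genes. Of 9 club cell markers outside the enzyme families 7 were measured and 6 were lower, 0 higher, with 2 above the floor in CHIR+ and 7 in CHIR-, and their summed signal was 139 in CHIR+ and 3315 in CHIR-, most of it from Scgb3a2 (10.1 in CHIR+ and 1247 in CHIR-) and Sftpd (87.8 in CHIR+ and 1602 in CHIR-), which alveolar cells make too. Scgb1a1, the defining club cell secretoglobin, was at 7.55 in CHIR+, below the floor, and at 35.2 in CHIR-, so it was dim in both. After median centring 4 genes of this list were lower and 0 higher: Scgb3a2, Sftpd, Sox2 and Krt15. The list reaches beyond club cells, so its counts do not describe that cell type alone. Scgb1a1 and Scgb3a1 were then within 2-fold, with bounds of -0.84 and -0.51 on the log2 scale. Bpifa1 and Reg3g were below the floor on both arrays. Epcam, an epithelial adhesion molecule, had 3743 in CHIR+ and 3846 in CHIR-. Sftpc, the surfactant protein of distal lung epithelium, had 8500 in CHIR+ and 8808 in CHIR-. Nkx2-1, the lung identity factor, was dim, with 5.84, below the floor, in CHIR+ and 52.0 in CHIR-. The keratins Krt8 and Krt18 had 3151 and 2834 in CHIR+, against 7715 and 6738 in CHIR-. Sox9, a factor of distal lung bud tips, had 771 in CHIR+ and 70.1 in CHIR-, 11.0-fold higher, and its second probe set had a log2 ratio of 2.85. Of these 8 lung epithelium markers, all measured, 3 were thus lower and 1 higher, and 1 was lower and 1 higher after median centring.

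Of 7 liver markers with a probe set, from an organ rich in these enzymes, 3 were measured, 2 were lower and 0 higher. They had a summed signal of 297 in CHIR+ and 1083 in CHIR-, of which Afp, alpha-fetoprotein, made up 241 in CHIR+ and 928 in CHIR-. Alb, albumin, had 9.46, below the floor, in CHIR+ and 105 in CHIR-, whereas Apoa1, Apob, Fgb and Tat were below the floor on both arrays. In the lists for intestine and stomach, mesenchyme, endothelium and blood cells 0 genes passed 2-fold in either direction on the authors' scale, with 4 of 7 measured for intestine and stomach, 5 of 8 for mesenchyme, 1 of 5 for endothelium and 2 of 4 for blood cells. After median centring 1 mesenchyme marker was higher. Their summed signals were 162 in CHIR+ and 257 in CHIR- for intestine and stomach, 383 in CHIR+ and 446 in CHIR- for mesenchyme, 45.7 in CHIR+ and 64.8 in CHIR- for endothelium, and 85.1 in CHIR+ and 88.3 in CHIR- for blood cells. The part of club cell and liver-type genes in the lower enzyme signals was not tested.

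Promoter windows were searched on both strands for short cores: GCGTG of AhR, TGACNNNGC of Nrf2, CTTTGA of TCF and LEF, TGTTTAC of forkhead factors and TTGCNNAA of C/EBP. RefSeq windows were found for 38 of the 43 lower genes (45 windows) and for 31 of the 42 other measured genes (34 windows). GCGTG was in 28.9% of windows of lower genes, in 47.1% of those of other measured genes and in 32.4% of all 32851 windows. TGACNNNGC was in 11.1%, 11.8% and 12.4% in the same order, while CTTTGA was in 7 of 45, 6 of 34 and 5257 of 32851 windows. TGTTTAC was in 4.44%, 5.88% and 3.65%, and TTGCNNAA in 8.89%, 17.6% and 10.8%. These shares are a description, and no test of them was made.

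In the windows printed above, Cyp1a1 has GCGTG starting 54 bases before its start and Gstm1 has it 231 bases before. Gstm5, which like Gstm7 was not lower, has it on the opposite strand (CACGC) at 171 and 38 bases before the start. The second of these matches overlaps TGACCACGC, a match to the Nrf2 core. Neither window of Gstm7, not printed, has GCGTG on any strand. Aldh1a7 has CTTTGA 206 bases before its start, outside the capitals, and the printed windows of Cyp2f2 and Aldh1a1 have none of the 5 cores. The window of a further Aldh1a1 start, upstream and not printed, has 3 matches to CTTTGA and 1 to TTGCNNAA. Between Gstm1 and Gstm5 the windows were identical at 46.5% of aligned positions, and their longest shared run was 9 bases. A match is a description of letters and not a binding site.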

How the data were processed

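Signals of 45101 probe sets were deposited by the authors as linear intensity values from MAS5, a tool named without version or scaling target in the submitters' processing notes; MAS5 subtracts mismatch signal, so dim values scatter. RNA (100 ng per array) was labelled with a 3' in vitro transcription kit, per the labels' protocols. Probe sets were named from the platform annotation, and all 176 members were found by Entrez identifier in a RefSeq table of GRCm38.p6, with 0 symbols changed. Control probe sets and those naming several genes were left out, and the probe set brightest on average, in log2 units, over both arrays stood for its gene.

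The members and lists were chosen with earlier results of these data known. Genes named are members past 2-fold at 4 times the floor, the 12 brightest members, 36 fixed genes (4 of them not analysed here) and up to 4 genes per list; Akr1c18, Akr1c6, Akr1c20, Akr1c21, Gstm3, Gstm5, Gstm6, Gstm7, Fmo5, Aldh16a1, Cyp1a2, Txn1, Gsta1 and single marker or list genes were named beyond it, after their values were seen. Floors, counts and ratios were computed with numpy 2.4.6, pandas 2.3.3 and statsmodels 0.14.6 under Python 3.11.15, and the procedure was tested on simulated data. The simulated noise was smaller than the spread among probe sets of a gene. That run therefore checks the computation and not how certain the 2-fold calls are. Alternatives were 4 scalings, 3 other floors, an offset, other probe set rules and other thresholds. Their number, 1 array per condition, limits the precision.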

Additional observations from a re-analysis of the deposited data

How the results depend on the processing

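With 1 array per condition no spread between cultures is known, and values from dim probe sets are the least certain. No paired analysis was possible because each condition has a single array. The 43 genes at least 2-fold lower became 31 to 57 under all alternatives except no floor, which gave 72 by letting values below background form ratios. The count of higher genes was 1, but 9 with no floor and 0 with a 3-fold threshold, with the median over probe sets or without the suffixes _x_at, _s_at and _a_at, where Aldh18a1 was within 2-fold. The enzymes' median log2 ratio, -1.02 as reported, became -0.40 by median centring and -0.39 by quantile normalization, while all genes measured had 0.20 and 0.12; it was -0.27 with an offset of 16, where all 176 genes count. Of all 2-fold calls, higher ones made up 2.27% among the enzymes and 9.33% among all genes on the authors' scale, 3.12% and 59.2% with median centring, 3.03% and 53.4% with quantiles, 3.03% and 45.2% with loess and 2.56% and 16.7% with hybridization controls. Of 35 named lower genes, 29 were at or below -1 under every alternative run and all 35 below 0; the 6 others were Aldh1a2, Aldh6a1, Cyp1b1, Fmo1, Gstm4 and Gstt2. Other enzyme genes were not followed one by one through the alternatives.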

Other observations

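Probe sets that name several genes lie outside the counts above. There were 13 of them with an enzyme of these families, of which 7 were measured, 5 at least 2-fold lower and 0 higher. The 3 with the highest signals in CHIR- read the Ugt1a glucuronosyltransferases, 8 genes that share their last exons, so a 3' probe set cannot tell them apart. Their signals were 137, 67.2 and 38.6 in CHIR+, against 2520, 1440 and 813 in CHIR- for the same probe sets. The log2 ratios were -4.20, -4.42 and -4.39, and between -3.80 and -3.58 after median centring. These enzymes conjugate bilirubin and many drugs with glucuronic acid, and no single one of them can be named from these values.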
